A study of Mus musculus with 2 samples.

Results

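Interferon-stimulated genes were described in immune cells of a mouse model of hepatocellular carcinoma as a list of 37 named genes, of which 36 had a row among the 32285 genes of the count tables. Mx1 had no row and was not analysed here. The list was set by gene name, but it was chosen with earlier results of these data known. Its counts beside those of all genes are therefore a description. Live CD45+ cells, that is, cells of the immune lineage, had been sorted from tumors and profiled by droplet scRNA sequencing with 3′ chemistry, in which each molecule carries a unique molecular identifier (UMI) and PCR copies of it count once. There were 2 libraries, 1 per condition. The tumors arose in male C57BL/6J mice aged 6 to 8 weeks after hydrodynamic tail vein injection of plasmids that carried human MYC, a guide against Trp53 and the Sleeping Beauty transposase, a delivery that reaches hepatocytes. Every mouse received lenvatinib, an inhibitor of several receptor tyrosine kinases, at 30 mg/kg from day 12 after the injection. After 25 days, treatment went on with lenvatinib at 30 mg/kg or with lenvatinib at 30 mg/kg and palbociclib, an inhibitor of the kinases CDK4 and CDK6, at 100 mg/kg (combo). An untreated library is therefore no part of the comparison, and the number of mice behind each library is not given in the sources used here.

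Type I and type III interferons bind receptors on the cell surface, and receptor-bound kinases then phosphorylate STAT2, which with IRF9 is part of ISGF3, a complex that enters the nucleus and binds the interferon-stimulated response element (ISRE) in the promoters of its targets. The products of those genes sense foreign RNA and DNA, stop viral translation, trim or edit nucleic acids, and include both activators and inhibitors of the pathway itself. Interferon-gamma, made mainly by T and NK cells, acts through a receptor of its own on a set of genes that partly overlaps this one.

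The element can be read in the genes' own promoters. Promoters of 28 of the 37 genes were in the RefSeq table (build GRCm38.p6), each with 250 bases before and 50 bases after the start of the gene. The core was searched as GAAA, any 2 bases and GAAA again and, for the other strand, as TTTC, any 2 bases and TTTC again, with overlapping matches counted. It was present for 15 of 28 listed genes (53.6%) and for 3.99% of 27025 genes in the table. The 150 bases before the start are shown for Isg15, with 3 overlapping matches, Ifit1, with 2 separate ones, and Rsad2, with 1. The promoters stand for 3 roles in the list: a secreted and conjugated protein, an RNA binder and an enzyme. Capitals mark the ISRE core, and each sequence reads 5′ to 3′ on the strand of its gene.
Isg15, chr4:156200819-156200968, minus strand: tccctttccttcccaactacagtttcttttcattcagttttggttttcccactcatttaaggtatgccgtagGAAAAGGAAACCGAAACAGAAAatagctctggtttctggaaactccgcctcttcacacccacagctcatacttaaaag
Ifit1, chr19:34640739-34640888, plus strand: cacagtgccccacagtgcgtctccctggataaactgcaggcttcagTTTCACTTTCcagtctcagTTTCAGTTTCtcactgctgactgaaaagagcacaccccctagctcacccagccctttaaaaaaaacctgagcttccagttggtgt
Rsad2, chr12:26456453-26456602, minus strand: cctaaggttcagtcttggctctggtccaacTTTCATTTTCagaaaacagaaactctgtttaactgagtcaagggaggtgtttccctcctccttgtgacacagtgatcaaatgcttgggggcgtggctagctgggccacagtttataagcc

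Shorter windows show how alike the core is between neighbours and between roles. Ifit3 and Ifit3b, adjacent genes of the same family, have identical letters there, and Bst2 and Oas1a each hold overlapping matches.
Ifit3, chr19:34583403-34583420, plus strand: tctgTTTCAGTTTCtact
Ifit3b, chr19:34607799-34607816, plus strand: tctgTTTCAGTTTCtact
Bst2, chr8:71537583-71537606, minus strand: ccagGAAAATGAAACTGAAAggct
Oas1a, chr5:120907526-120907549, minus strand: tcggGAAATGGAAACTGAAAatct

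Several of the genes lie side by side in the genome (GENCODE M21, GRCm38). Ifit2, Ifit3, Ifit3b and Ifit1 follow each other on chromosome 19 between 34550694 and 34650009. Rsad2 (12:26442746-26456452) and Cmpk2 (12:26469204-26479837) are 12751 bases apart on opposite strands. Oas2 and Oas3 on chromosome 5 are 3244 bases apart, and Oasl2 and Oasl1 on the same chromosome are 11005 bases apart. Parp9 and Dtx3l on chromosome 16 overlap at their 5′ ends on opposite strands. In the last 500 bases of the transcripts, which a 3′ assay reads, 56.1% of the 50-base words of Oas1a also occur in other genes, mostly Oas1g, and 14.9% of those of Ifit3 also occur elsewhere, mostly in Ifit3b. For the other members the share was at most 3.47%, so Oas1a and, less so, Ifit3 are the uncertain counts.

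The lenvatinib library held 14509 barcodes and 98107503 UMIs, and the combo library 11989 barcodes and 93583402 UMIs. A limit of 6000 genes and 25% mitochondrial UMIs per cell kept 14201 and 11613 cells. Cells with a UMI of exactly 1 of 6 marker genes formed a gate each (Cd3e for T, Ncr1 for NK, Cd79a for B, Csf1r for monocyte/macrophage, Csf3r for neutrophil, Flt3 for dendritic), which took 65.8% of lenvatinib cells and 64.6% of combo cells. The T gate held 5173 and 3795 cells, the NK gate 2509 and 981, the B gate 535 and 604, the monocyte/macrophage gate 192 and 432, the neutrophil gate 681 and 1468, and the dendritic gate 249 and 217. The median UMIs per cell lay between 2516 and 9088 under lenvatinib and between 3502.5 and 11631 under combo. The libraries shared 49 barcodes. Each gate held its own further markers at higher levels than the other gates held them, apart from a pair of markers under lenvatinib. Cd209a, listed as a dendritic marker, was at 180.3 UMIs per 1000000 UMIs in the monocyte/macrophage gate and 132.6 in the dendritic gate, and Cd4, listed as a T marker, at 31.0 in the dendritic gate and 28.4 in the T gate. The B gate was rich in Jchain, a plasma cell gene, at 10005 and 18804 UMIs per 1000000 UMIs under lenvatinib and combo, and the dendritic gate in Siglech, a gene of plasmacytoid dendritic cells, at 1009 and 819.9. By the rule of the gates, each gate gene is at 0 in the other gates. The 5 other neutrophil markers, which include S100a8, summed to between 220.9 and 2357 UMIs per 1000000 in the non-neutrophil gates under lenvatinib and to between 2998 and 18356 under combo, and the part of this neutrophil RNA in the results was not tested.

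Levels are given as UMIs per 1000000 UMIs of the gate (CPM), with 95% exact Poisson intervals, and a change as the ratio of combo over lenvatinib with its 95% exact conditional interval. These intervals, and those given for shares of cells, cover counting error only. With 1 library per condition there is no replicate error, and the effect of treatment and the variation among mice or preparations cannot be told apart. A 3′ assay counts a molecule once whatever its length, so levels of different genes can be set side by side.

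Under lenvatinib the 36 genes together were highest in the dendritic gate, at 4328 CPM, and the neutrophil gate, at 4249 CPM. The monocyte/macrophage gate followed at 3399 CPM and the T gate at 2463 CPM, and the B and NK gates were lowest at 1656 and 1621 CPM. Few genes carried these sums, and which genes they were differed by gate. Ifi27l2a, which encodes a small interferon-induced membrane protein, led in the T gate with 625.9 CPM (617.7 to 634.1), in the B gate with 378.5 CPM, in the monocyte/macrophage gate with 911.2 CPM and in the neutrophil gate with 659.2 CPM. Bst2, the tether that holds budding virus at the cell surface and a known surface mark of plasmacytoid dendritic cells in mice, led in the dendritic gate with 1502 CPM (1455 to 1552). The next gate for Bst2 was monocyte/macrophage with 218.1 CPM. Ifi203, a member of the nuclear DNA-sensing PYHIN family, led in the NK gate with 273.4 CPM and lay between 270.9 and 310.9 CPM in every gate but neutrophil, where it was at 75.9 CPM. The other leading genes, each among the 5 highest of at least 1 gate, were Samd9l, Trim30a, Slfn5, Ddx58, Isg15 and Rsad2.

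**Figure D1:**
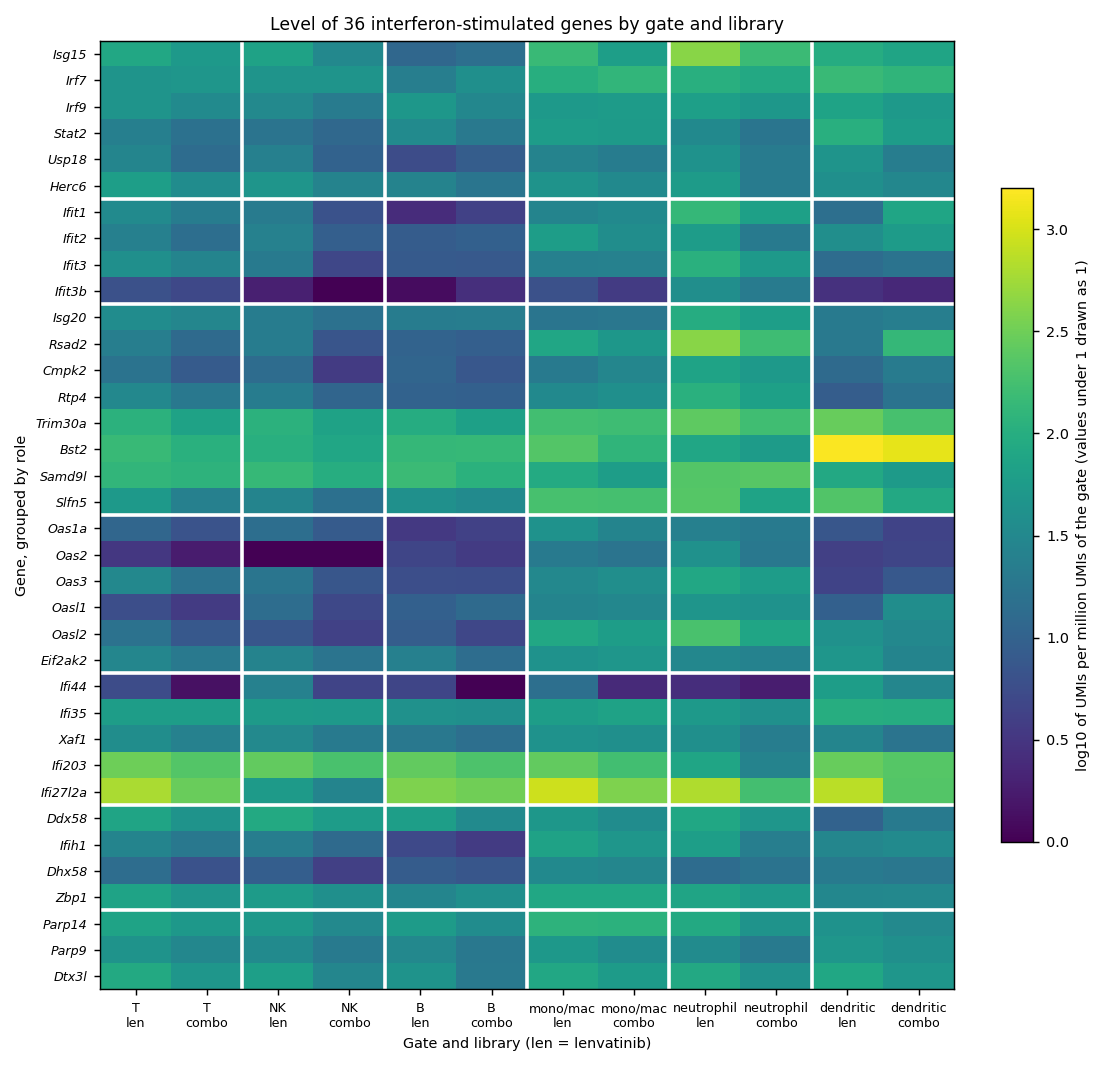
Level of the 36 genes (rows, grouped by role) in each gate and library (columns), as log10 of CPM on a colour scale. Bst2 in the dendritic gate is the highest cell, and the neutrophil columns hold the highest levels of Isg15 and Rsad2.

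The neutrophil gate had the highest level of 12 of 36 genes in both libraries: Ifit3, Ifit3b, Isg15, Isg20, Rsad2, Oas2, Oas3, Oasl1, Oasl2, Cmpk2, Rtp4 and Samd9l. Rsad2, which encodes viperin, an enzyme that makes a chain-terminating nucleotide, was at 433.7 CPM (407.3 to 461.4) in lenvatinib neutrophils and between 10.5 and 77.4 CPM in the other lenvatinib gates. Isg15, a ubiquitin-like modifier, was at 433.3 CPM in neutrophils and at 11.8 CPM in B cells. The monocyte/macrophage gate had the highest level of 7 genes in both libraries, among them the RNA sensors Ifih1 and Dhx58, the nucleic acid sensor Zbp1 and Parp14. The dendritic gate had it for 6, which were Ifi44, Ifi35, Stat2, Usp18, Trim30a and Bst2. Herc6 was highest in the T gate and Ddx58 in the NK gate in both libraries. In all, 27 of 36 genes had the same highest gate in both libraries. The B gate had the lowest level of 20 genes under lenvatinib and of 16 under combo.

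Under combo the summed level was lower in each gate. In the T gate it was 1563 CPM against 2463 CPM, a ratio of 0.635 (0.627 to 0.642). In the NK gate it was 1000.4 against 1621 CPM, a ratio of 0.617 (0.602 to 0.633). The neutrophil gate had the lowest ratio, 0.504 (0.492 to 0.516), with 2141 against 4249 CPM. The ratio was 0.710 (0.683 to 0.738) in the monocyte/macrophage gate, 0.732 (0.712 to 0.752) in the dendritic gate and 0.804 (0.771 to 0.840) in the B gate. From a sum over a gate, fewer cells that express the genes and less RNA per cell cannot be told apart. Counted as UMIs per cell with no scaling to the total, the ratio was 0.583 in the T gate, 0.653 in the NK gate and 0.916 in the monocyte/macrophage gate, and the lower level under combo was gone in the B gate (1.004), the dendritic gate (1.01) and the neutrophil gate (1.07), where combo cells held more UMIs.

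These values were read against all genes of each gate. A gene was compared in a gate when it had at least 20 UMIs over both libraries, and it was counted as lower or higher when the levels differed by 1.5-fold or more. In the T gate 23 of 36 genes were lower and 0 higher, where 14.7% of all 13703 genes compared were lower and 7.73% higher. In the NK gate 27 of 35 were lower and 0 higher, against 14.3% and 8.07% of all genes. The median ratio of the list was 0.633 in T and 0.576 in NK cells, where the median of all genes was 0.907 and 0.924. The T and NK gates thus had a share of lower genes several times that of all genes. When a cell could belong to several gates, 8 of 36 genes were lower in the T gate, 23 of 36 in the NK gate and 11 of 36 in the neutrophil gate. The share of all genes was not computed for such gates, so these smaller counts have no background beside them.

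In the neutrophil, B and monocyte/macrophage gates the background itself was shifted. In the neutrophil gate 23 of 36 genes were lower and 0 higher, but 48.1% of all genes were lower and 6.01% higher, and the medians were 0.591 for the list and 0.682 for all genes. In the B gate 9 of 34 were lower and 3 higher, against 39.0% and 4.57%, and the list's median of 0.844 lay above the 0.744 of all genes. The monocyte/macrophage gate had 9 of 35 lower and 0 higher, against 22.8% and 9.04%, with medians of 0.889 and 0.892. In the dendritic gate 11 of 35 were lower and 8 higher, against 15.0% and 8.84%, with medians of 0.805 and 0.949. The background of this gate was near those of the T and NK gates. Scaled to the median gene of each gate in place of its total, 15 genes were lower and 0 higher in T, 22 and 0 in NK, 1 and 8 in B, 4 and 1 in monocyte/macrophage, 9 and 2 in neutrophil and 9 and 8 in dendritic cells, so the T and NK counts stayed on the lower side and the B count turned. The shares of all genes were not computed at this scaling. The B gate also changed when cells with at least 10 Jchain UMIs were left out, with a summed level of 1841 against 1726 CPM and a ratio of 0.937 (0.895 to 0.982).

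**Figure D2:**
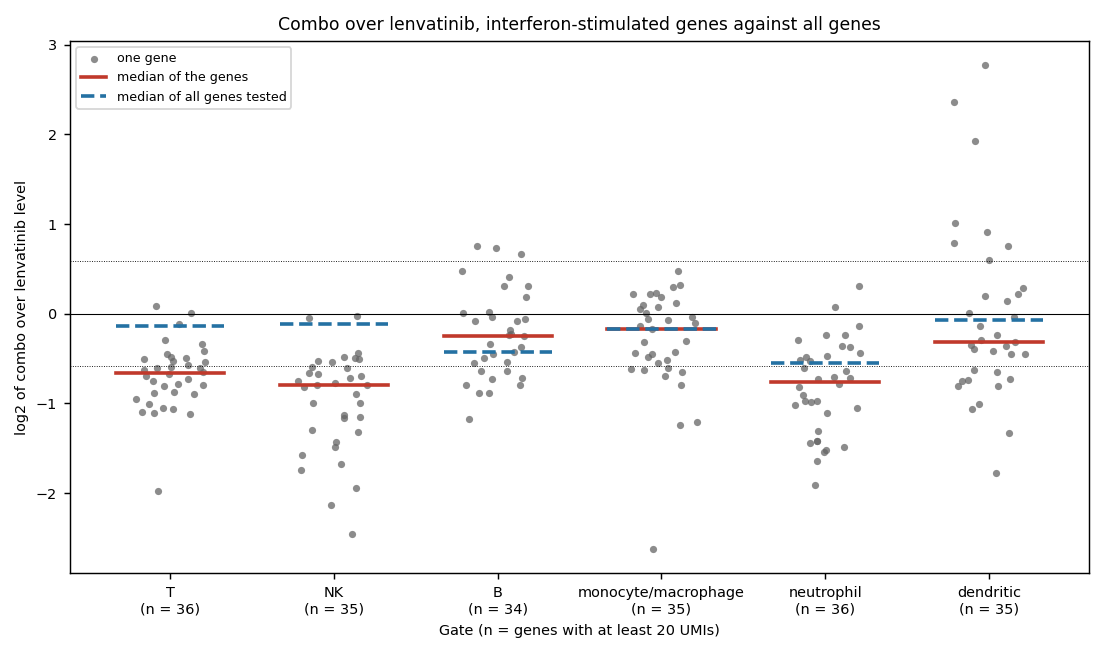
Log2 of the combo over lenvatinib level for each gene with at least 20 UMIs (points), by gate, with the median of the list (red line) and of all genes compared (blue dashed line) and dotted lines at 1.5-fold. The red line lies well under the blue one in T and NK cells, close to it in monocytes/macrophages, and above it in B cells, and 3 points in the dendritic gate stand apart at the top.

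Among the genes of ISGF3 and its feedback, Stat2 and Irf9, which encode subunits of the complex, had 857 UMIs under lenvatinib and 373 under combo (23.9 and 15.4 CPM, ratio 0.646) and 1641 and 813 UMIs (45.7 and 33.6 CPM, ratio 0.735) in the T gate. Stat2 was lower by 1.5-fold or more in 4 of 6 gates and Irf9 in 2. Usp18, a protease that removes ISG15 and blocks the receptor, was at 28.2 and 13.6 CPM in T cells (ratio 0.483, 0.425 to 0.547), at 24.6 and 10.0 CPM in NK cells (0.408) and at 45.6 and 22.7 CPM in dendritic cells (0.499). In B cells Usp18 had 13 and 29 UMIs, a ratio of 1.58 with an interval of 0.798 to 3.32 that includes 1. Isg15 was at 82.3 and 54.2 CPM in T cells (0.658), 70.6 and 31.6 CPM in NK cells (0.448), 146.0 and 63.0 CPM in monocytes/macrophages (0.432) and 433.3 and 151.0 CPM in neutrophils (0.349). Herc6, the mouse ligase that joins ISG15 to proteins, had ratios of 0.581 in T and 0.373 in neutrophils.

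Irf7, the factor that drives interferon-alpha genes, went another way than the rest of its group. Its level was 44.8 CPM under lenvatinib and 47.4 CPM under combo in T cells (ratio 1.06, 0.981 to 1.14) and 45.9 and 45.1 CPM in NK cells (0.982, 0.866 to 1.11), and these intervals include 1. It had the highest ratio of the list in both gates. In B cells it was at 23.2 and 39.2 CPM (1.69, 1.23 to 2.36), the highest ratio there as well, and in dendritic cells, where it was most abundant under lenvatinib, at 148 and 126 CPM (0.847). Ifi35, an interferon-induced leucine zipper protein, was the other gene close to 1 in T and NK cells, with 60.3 and 60.4 CPM in T cells (1.002, 0.937 to 1.07) and a ratio of 0.967 in NK cells. In monocytes/macrophages Irf7 was at 103 and 127 CPM (1.23, 1.003 to 1.53), among the 3 highest ratios of that gate. Neither Irf7 nor Ifi35 was lower by 1.5-fold in any gate.

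The sensors detect RNA in the cytosol (Ddx58, encoding RIG-I, Ifih1, encoding MDA5, and their regulator Dhx58, encoding LGP2) or left-handed nucleic acids (Zbp1). Ddx58 was at 73.5 and 43.9 CPM in T cells (0.597, 0.555 to 0.641), 88.4 and 58.4 CPM in NK cells (0.660) and 62.3 and 33.8 CPM in B cells (0.542). Dhx58 had 500 and 157 UMIs in T cells (13.9 and 6.49 CPM, 0.466) and 172 and 32 UMIs in NK cells (0.449). It was among the 3 lowest ratios in T cells and had the highest of the list in neutrophils, where it had 31 and 176 UMIs and a ratio of 1.24 with an interval of 0.844 to 1.88. Zbp1 was at 72.3 and 46.1 CPM in T cells (0.638) and at 80.9 and 81.2 CPM in monocytes/macrophages (1.004).

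The IFIT proteins bind viral RNA ends. In NK cells, where 14.3% of all genes were lower, all 4 genes were. Ifit1 was at 21.7 and 6.47 CPM (0.298, 0.218 to 0.400), Ifit2 at 25.3 and 9.39 CPM (0.371) and Ifit3 at 21.1 and 4.82 CPM (0.229). Ifit3b had 36 and 5 UMIs (0.336). The change in T cells was smaller, with ratios of 0.663 for Ifit1, 0.576 for Ifit2, 0.705 for Ifit3 and 0.789 for Ifit3b. In neutrophils Ifit1 was at 135 and 66.6 CPM (0.495), and Ifit2, at 58.6 and 20.2 CPM (0.344), had the third lowest ratio of the gate. In B cells Ifit1 had 6 and 14 UMIs, with a ratio of 1.66 and an interval of 0.598 to 5.26.

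The OAS proteins make the second messenger that activates RNase L, and Eif2ak2 encodes PKR, the kinase that stops translation on double-stranded RNA. All 6 genes were lower in T cells, where 14.7% of all genes were. The ratios lay between 0.478 (Oasl2, 16.1 and 7.69 CPM) and 0.655 (Eif2ak2, 29.7 and 19.5 CPM). All 5 compared were lower in NK cells, against 14.3% of all genes, from 0.358 (Oasl1) to 0.635 (Eif2ak2). Oas2 had only 10 and 8 UMIs there. Oasl2 in neutrophils was at 190 and 76.6 CPM (0.404), and Oasl1 in the same cells at 47.0 and 42.9 CPM (0.913, 0.739 to 1.14). In monocytes/macrophages Oas3, at 30.8 and 38.5 CPM (1.25, 0.854 to 1.87), was among the 3 highest ratios. In B cells Oasl2, with 21 and 16 UMIs, had a ratio of 0.541 and an interval of 0.264 to 1.09.

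Of the 8 antiviral effectors measured, 5 were lower in each of the T, NK and neutrophil gates, where 14.7%, 14.3% and 48.1% of all genes were lower, so the neutrophil count was the one near the share of all genes. Rsad2 was at 23.7 and 12.7 CPM in T (0.537), 22.3 and 6.98 CPM in NK (0.313), 77.4 and 50.01 CPM in monocytes/macrophages (0.646) and 433.7 and 159.3 CPM in neutrophils (0.367). Cmpk2, its neighbour, which encodes a mitochondrial nucleotide kinase, was at 16.6 and 8.31 CPM in T (0.499) and 13.7 and 3.55 CPM in NK (0.260), but at 21.1 and 29.4 CPM in monocytes/macrophages (1.39, 0.884 to 2.28), the highest ratio of that gate. Slfn5, of the Schlafen family of growth regulators, was at 52.9 and 24.5 CPM in T (0.462), 227 and 72.8 CPM in neutrophils (0.320) and 212 and 84.2 CPM in dendritic cells (0.397). Samd9l, a translation inhibitor, differed little in T cells, at 127 and 118 CPM (0.927, 0.885 to 0.972), and in neutrophils, at 222 and 235 CPM (1.06, 0.959 to 1.16). Trim30a, a ubiquitin ligase, had ratios from 0.607 in NK to 0.931 in monocytes/macrophages. Bst2 was lower by 1.5-fold only in monocytes/macrophages, at 218.1 and 125.5 CPM (0.575), and had a ratio of 0.752 in T, 0.740 in NK and 0.805 in dendritic cells. Isg20, an exonuclease, was lower by 1.5-fold in neutrophils alone (0.641), and its ratios elsewhere lay between 0.707 and 1.10. Rtp4, a chaperone of surface receptors, was at 30.8 and 19.3 CPM in T (0.629).

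The mono-ADP-ribosylation genes encode PARP9, PARP14 and a partner ligase. Dtx3l, which encodes that partner of PARP9, was at 88.1 and 47.7 CPM in T (0.541), 63.9 and 29.2 CPM in NK (0.457) and 43.8 and 19.4 CPM in B cells (0.444, 0.320 to 0.611), the lowest B ratio. Parp9 was at 43.9 and 30.6 CPM in T (0.696), and Parp14 at 71.6 and 50.9 CPM (0.710). All 3 were lower by 1.5-fold in NK, B and neutrophil cells, where 14.3%, 39.0% and 48.1% of all genes were. In T cells, where 14.7% of all genes were lower, only Dtx3l was.

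Of the remaining genes, Ifi44, an interferon-induced protein of the cytosol, had the lowest ratio of the list in T, NK and monocyte/macrophage cells. It had 198 and 34 UMIs in T cells (5.51 and 1.40 CPM, 0.255, 0.172 to 0.368), 478 and 36 in NK cells (25.1 and 4.57 CPM, 0.182) and 17 and 8 in monocytes/macrophages (0.162). In the B gate its 11 and 3 UMIs were under the minimum of 20. Ifi27l2a was at 625.9 and 293.8 CPM in T (0.469, 0.457 to 0.482), 911.2 and 386.7 CPM in monocytes/macrophages (0.424), 659.2 and 175.1 CPM in neutrophils (0.266, 0.248 to 0.284) and 748.6 and 218.2 CPM in dendritic cells (0.291). It had the lowest ratio in the neutrophil and dendritic gates, and without it the summed ratio was 0.691 in T cells and 0.815 in monocytes/macrophages. Ifi203 was at 310.9 and 222.7 CPM in T (0.716) and 75.9 and 27.1 CPM in neutrophils (0.358), and Xaf1, a partner of the apoptosis inhibitor XIAP, at 37.5 and 25.8 CPM in T (0.688).

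The ratios were also set out by the presence of an ISRE core in the promoter window. In the T gate 10 of 15 with the core and 7 of 13 without it were lower by 1.5-fold, with median ratios of 0.655 and 0.606, and in the NK gate 12 of 15 and 9 of 13, with 0.569 and 0.586. The neutrophil gate had 11 of 15 and 6 of 13, with 0.535 and 0.692. The counts were 3 of 14 and 4 of 12 in the B gate (0.861 and 0.760), 5 of 14 and 3 of 13 in the monocyte/macrophage gate (0.832 and 0.907) and 5 of 14 and 4 of 13 in the dendritic gate (0.792 and 0.786). Of all genes, 14.7% were lower in T, 14.3% in NK and 48.1% in neutrophil cells. The shares were 39.0% in B, 22.8% in monocyte/macrophage and 15.0% in dendritic cells. Both B counts, and the neutrophil and monocyte/macrophage counts without the core, were near or below these shares.

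In the B gate 3 of 34 genes were higher under combo and 9 lower, where 4.57% and 39.0% of all genes were. The dendritic gate had the most genes higher under combo, 8 of 35 beside 11 lower, where 8.84% and 15.0% of all genes were. Rsad2 had 49 UMIs under lenvatinib and 404 under combo (19.8 and 135 CPM, ratio 6.83, 5.07 to 9.39), Ifit1 37 and 230 (14.9 and 76.8 CPM, 5.15, 3.63 to 7.502) and Oasl1 24 and 110 (9.68 and 36.8 CPM, 3.80, 2.43 to 6.18). Ddx58 (2.02), Rtp4 (1.88), Oas3 (1.73), Cmpk2 (1.68) and Ifit2 (1.52) were higher as well, and of these the interval for Oas3, with 11 and 23 UMIs, includes 1. In the same gate Ifi27l2a, Slfn5 and Ifi44 (61.3 and 29.4 CPM, 0.480) had the lowest ratios.

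The highest of these levels were held by few cells. Under combo, the 5 dendritic cells with the most Rsad2 UMIs held 319 of the 404 Rsad2 UMIs (79.0%), 151 of 230 Ifit1 UMIs (65.7%) and 75 of 110 Oasl1 UMIs (68.2%), and 1 cell alone held 117 Rsad2 UMIs. Under lenvatinib the corresponding 5 cells held 36.7% of Rsad2, 27.0% of Ifit1 and 25.0% of Oasl1 UMIs. The share was smaller for Ddx58, at 26.2% under combo, and for Ifit2 it was 43.0% under combo and 46.8% under lenvatinib. The 5 combo cells had between 15242 and 32383 UMIs in all, and no combo cell of the gate was called a doublet. They held 0 of the 2454 Siglech UMIs of the gate and 21 of its 3620 Bst2 UMIs, so Siglech was at 0 in them. When 5 such cells were left out of each library, the ratio was 2.31 for Rsad2, 2.46 for Ifit1, 1.64 for Oasl1, 1.22 for Rtp4 and 1.16 for Cmpk2, and 14 of 35 genes were lower and 6 higher. Ifit2 (1.65), Ddx58 (1.72) and Oas3 (1.77) were among the 6, and the intervals for Oasl1 (0.902 to 3.07) and Oas3 (0.796 to 4.20) included 1. Isg15 went from 0.763 to 0.512 and Ifit3 from 1.22 to 0.505. Because the cells were chosen on Rsad2, these values are a description. The share of all genes lower or higher was not computed without these cells. After each cell was thinned to 2000 UMIs, Rsad2 was detected in 11 of 233 lenvatinib cells (4.72%, 95% Clopper-Pearson interval 2.38 to 8.29) and 10 of 215 combo cells (4.65%, 2.25 to 8.39), so the share of cells with Rsad2 was not detectably different at this depth. Without thinning, the shares were 11.2% and 16.6%.

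**Figure D3:**
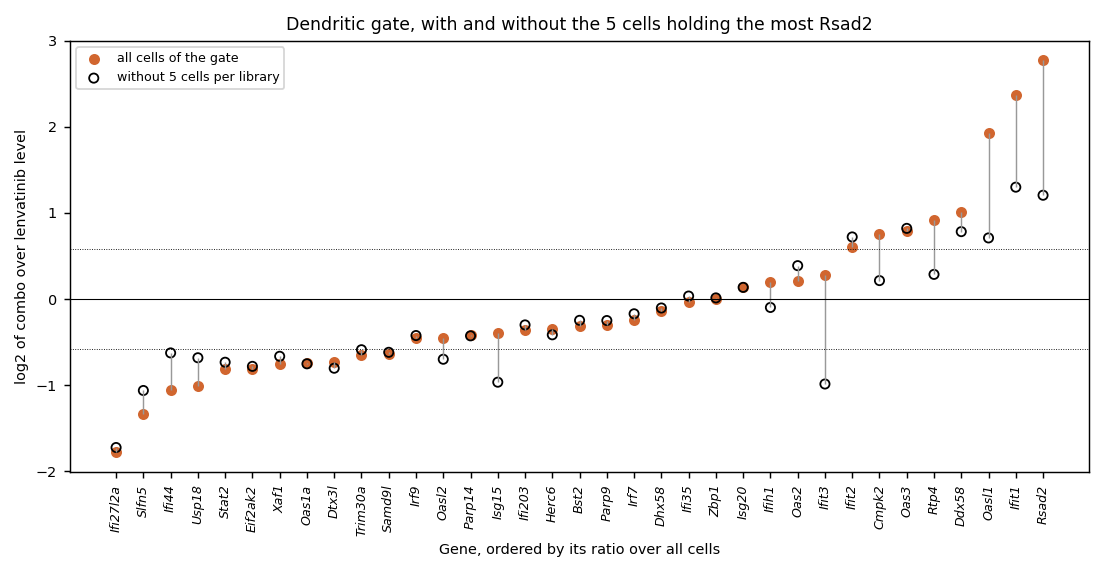
Log2 of the combo over lenvatinib level in the dendritic gate for each gene (horizontal axis), over all cells (filled points) and without the 5 cells of each library with the most Rsad2 UMIs (open points). Rsad2, Ifit3, Oasl1 and Ifit1 come down most, while Ifi27l2a and Slfn5 at the left stay lowest.

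The same 5 combo cells held most Ifnb1 and Ifna2 UMIs of the gate. Ifnb1, encoding interferon-beta, had 0 UMIs in lenvatinib dendritic cells and 73 in combo dendritic cells (24.4 CPM), at least 20.2-fold higher when set against the floor of 3 counts in the gate. Of those 73 UMIs, 70 (95.9%) lay in 4 of the 5 cells. Ifna2, an interferon-alpha, had 0 and 40 UMIs, at least 11.1-fold higher, and 35 (87.5%) lay in 3 of the 5 cells. Ifng, the gene of interferon-gamma, had 15 UMIs in 12 combo cells of the gate. Cxcl10, a chemokine gene that interferons induce, was at 33.1 and 232 CPM in this gate (7.005, 5.57 to 8.92), and 425 of its 693 combo UMIs lay in the 5 cells. In the monocyte/macrophage gate Ifnb1 went the other way, with 11 UMIs in 4 lenvatinib cells and 1 UMI in 1 combo cell.

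The share of cells with several UMIs of the list was lower under combo as well. With each cell thinned to 2000 UMIs, at least 5 UMIs of the 36 genes were found in 38.6% of lenvatinib T cells (37.2 to 40.0, 1875 of 4856 cells) and 19.1% of combo T cells (17.9 to 20.5, 706 of 3688). In NK cells the shares were 19.2% (17.7 to 20.9) and 8.05% (6.41 to 9.94), in neutrophils 48.2% (43.7 to 52.7) and 29.7% (27.3 to 32.2) and in monocytes/macrophages 58.0% (49.5 to 66.2) and 37.3% (32.4 to 42.4). The intervals of the libraries, which cover the sampling of cells and not variation among mice, did not overlap in these 4 gates. They overlapped in the B gate, at 29.4% (25.3 to 33.7) and 23.6% (20.2 to 27.4), and in the dendritic gate, at 72.5% (66.3 to 78.2) and 60.9% (54.1 to 67.5). No such share was computed for other genes, so these shares have no background beside them. By summed level, 48.1% of all genes were lower in neutrophils and 22.8% in monocytes/macrophages. In T and NK cells 14.7% and 14.3% were. Thinning left out between 2 and 317 cells of a gate and library, those with fewer UMIs than 2000. Of neutrophils it left out 189 of 681 lenvatinib and 101 of 1468 combo cells, and of monocytes/macrophages 49 of 192 and 62 of 432. The shares in these gates therefore describe a more selected set of lenvatinib cells. In unthinned cells the share was 82.2% under lenvatinib and 67.9% under combo in T cells, but it was higher under combo in neutrophils (60.2% and 63.4%) and in dendritic cells (92.0% and 96.3%). Without Bst2, Ifi27l2a, Ifi203 and Isg20 the ratio of the shares was 0.483 in T and 0.348 in NK cells, and in B cells it turned from 0.805 to 1.15.

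**Figure D4:**
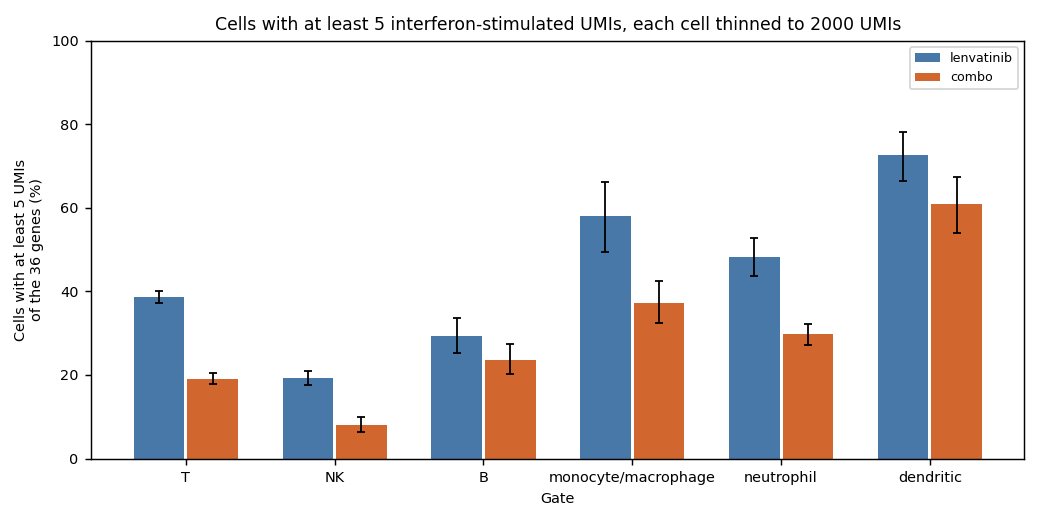
Percent of cells with at least 5 UMIs of the 36 genes after each cell was thinned to 2000 UMIs, by gate and library, with 95% Clopper-Pearson intervals. The combo bar is lower in each gate, and the intervals are clear of each other in the T, NK, monocyte/macrophage and neutrophil gates.

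The genes were co-detected within cells. Thinned lenvatinib T cells with an Ifit3 UMI, 287 of 4856 (5.91%), had 35 of the 35 other genes at 2-fold or more of the level of T cells without it, where 3.65% of all genes were that much higher. The median ratio was 5.05, from 2.23 for Irf9 to 15.5 for Rsad2 (247 and 15.98 CPM). Ifit3b reached 13.4, but it shares letters with Ifit3, and Ifit1 reached 12.5. In combo T cells 159 of 3688 (4.31%) had an Ifit3 UMI, with 32 of 33 other genes 2-fold higher, against 5.23% of all genes, and a median of 4.72. The medians were 5.71 in lenvatinib NK cells and 5.61 and 5.16 in lenvatinib and combo neutrophils. Cells with the list at a high level were thus found in both libraries. The intervals of the share of T cells with Ifit3 (5.26 to 6.61 and 3.68 to 5.02), which leave out variation among mice, did not overlap. Fewer than 20 cells with an Ifit3 UMI were left in each of the B, monocyte/macrophage and dendritic gates and in combo NK cells, which were not compared.

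Splitting the gates by a further gene showed where the ratio was lowest. In T cells with a Cd4 UMI (499 and 440 cells) the summed level was 3843 CPM under lenvatinib and 1894 CPM under combo, a ratio of 0.493 (0.476 to 0.510), and 30 of 34 genes were lower, where 27.0% of all genes were. Rsad2 had 112 and 14 UMIs there (0.147, 0.0778 to 0.257) and Ifi44 30 and 1. In T cells with Cd8a (2823 and 2025 cells) the levels were 2370 and 1652 CPM, a ratio of 0.697 (0.686 to 0.708), with 14 of 36 genes lower against 13.5% of all genes. The Cd4 and Cd8a intervals did not overlap.

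The myeloid gates split further. Neutrophils with Ptgs2, the gene of the prostaglandin enzyme COX-2, went from 5335 to 2412 CPM (0.452, 0.438 to 0.467), and those without it from 3048 to 1980 CPM (0.650, 0.625 to 0.675). With Ptgs2 the median ratio was 0.537 for the list and 0.780 for all genes. There 26 of 35 genes were lower and 0 higher, against 35.3% and 8.88% of all genes. Without Ptgs2 the medians were 0.720 for the list and 0.636 for all genes. There 15 of 35 were lower and 1 higher, against 54.6% and 6.06%. In monocytes/macrophages with the complement gene C1qa (44 and 36 cells) Rsad2 had 45 and 5 UMIs (0.105, 0.0324 to 0.263) and Ifit1 18 and 4 (0.209). Without C1qa (148 and 396 cells) they had 43 and 160 UMIs (1.10, 0.782 to 1.58) and 14 and 104 UMIs (2.20, 1.25 to 4.16), although the summed ratios of the 2 groups, 0.699 and 0.707, were alike. Ifi27l2a did the reverse, at 1.03 with C1qa and 0.369 without it. Few cells held the Rsad2 and Ifit1 UMIs, which the counting intervals do not cover. In the whole gate, the 5 cells with the most Rsad2 held 52.3% of its UMIs under lenvatinib and 48.5% under combo. For Ifit1 the 5 top cells held 71.9% and 56.5%. With C1qa 12 of 24 genes were lower and 2 higher, against 25.3% and 18.4% of all genes. Without it 6 of 34 were lower and 3 higher, against 21.1% and 10.8%. Dendritic cells with Siglech (149 and 136 cells) had a ratio of 0.677 (0.654 to 0.700), with 18 of 29 genes lower and 0 higher, where 16.5% of all genes were lower and 7.99% higher. Those without it (100 and 81 cells) had 0.928 (0.883 to 0.975), with 5 lower and 9 higher of 34, against 17.8% and 12.6% of all genes, so the share of lower genes was below that of all genes. Rsad2 was 14.4-fold higher there, with 20 and 375 UMIs, of which the 5 combo cells described above held 319.

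**Figure D5:**
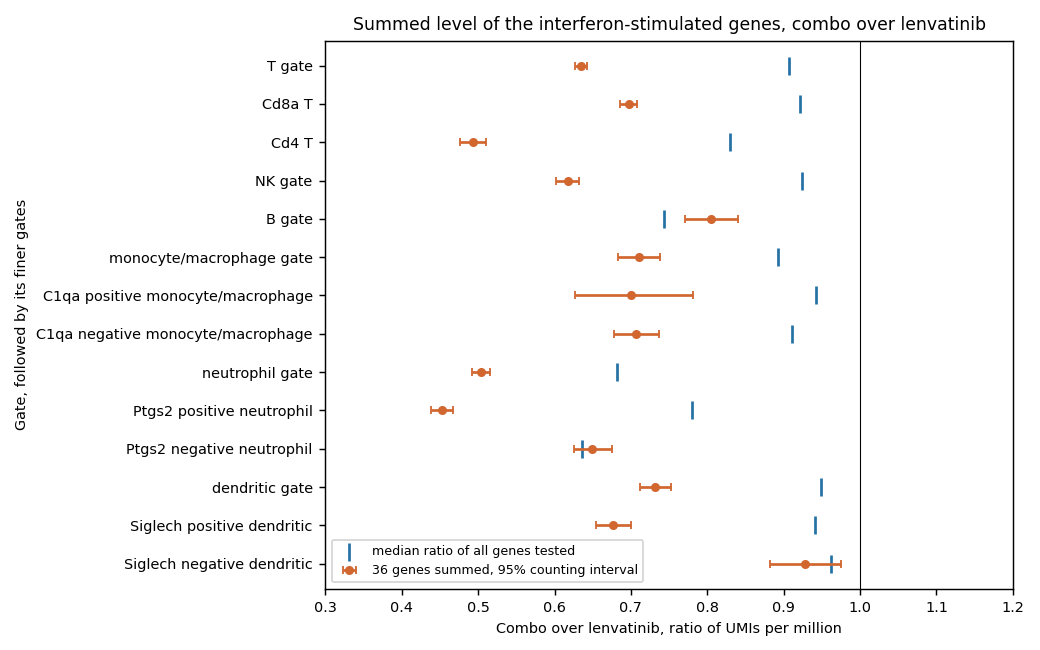
Ratio of combo over lenvatinib of the summed level of the 36 genes (points with 95% counting intervals) for each gate and for finer gates under it, with the median ratio of all genes compared (blue marks). T cells with Cd4 and neutrophils with Ptgs2 lie furthest left, and dendritic cells without Siglech lie closest to 1.

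Other genes of the pathway were followed as lists. Of 20 interferon genes, only Ifng, Ifnb1 and Ifna2 reached 10 UMIs in a gate. Ifng was at 173 and 244 CPM in T cells (1.41, 1.36 to 1.46) and at 316 and 306 CPM in NK cells (0.966, 0.921 to 1.01). In the other gates it was lower, at 20.6 and 6.88 CPM in B (0.333), 25.5 and 8.49 CPM in monocytes/macrophages (0.333), 36.6 and 9.14 CPM in neutrophils (0.250) and 14.1 and 5.01 CPM in dendritic cells (0.355). The 5 other NK markers also summed lower there, at 245.0 and 67.6 CPM in B and 443.3 and 73.0 CPM in monocytes/macrophages. They were at 353.5 and 60.3 CPM in neutrophils and 189.1 and 100.2 CPM in dendritic cells. The part of NK RNA in these Ifng levels was not tested. Among 13 receptor and signaling genes compared in T cells, 3 were lower and 0 higher, beside 14.7% and 7.73% of all genes in that gate. The highest ratio was that of Ifngr2, a chain of the interferon-gamma receptor, at 7.21 and 10.3 CPM (1.43). Ifnar1 and Ifnar2, the chains of the type I receptor, had ratios of 0.816 and 0.983 in T cells.

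The same shares of all T-gate genes, 14.7% lower and 7.73% higher, stand behind the T-cell counts of the next lists. Of 11 sensing adaptors and nucleases, 5 were lower and 0 higher in T cells, with Tlr3 (27 and 8 UMIs, 0.440), a receptor for double-stranded RNA, and Myd88 (20.05 and 23.7 CPM, 1.18), the adaptor of most Toll-like receptors, at the ends. Of 19 genes that respond mainly to interferon-gamma, 5 were lower and 0 higher in T cells, from Iigp1, an immunity-related GTPase, at 20.96 and 10.6 CPM (0.507), to Psmb8, an immunoproteasome subunit, at 423 and 579 CPM (1.37). Their summed level had a ratio of 0.952 (0.941 to 0.964), nearer to 1 than that of the 36 genes, but their median ratio was 0.732. The median of all T-gate genes was 0.907. In NK cells 8 of 18 of them were lower and 0 higher, against 14.3% and 8.07% of all genes. A further list of 39 interferon-stimulated genes had 15 lower and 3 higher in T cells and a summed ratio of 0.773 (0.766 to 0.781). Its ends were Ms4a4c, at 120 and 67.0 CPM (0.557), and Ifi205, with 22 and 55 UMIs (3.71, 2.23 to 6.39). In NK cells that list had 17 lower and 1 higher of 38, against 14.3% and 8.07% of all genes, and a summed ratio of 0.804.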

How the data were processed

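For 2 libraries of sorted CD45+ cells, the authors deposited matrices of whole UMI counts, genes by cell barcodes, with no normalization and with mm10 as the genome build. Cell Ranger stands as 5.0.1 in the methods and as 6.0.1 in the matrix header. Reads were not reprocessed. Cells over 6000 genes or 25% mitochondrial UMIs were removed, and cells with UMIs of several gate genes or of none were left out of the gates. Doublets, called with scanpy 1.11.5, were kept. UMIs were summed per gate and library, and scaled to 1000000. Intervals are 95% exact Poisson, conditional binomial or Clopper-Pearson, from scipy 1.17.1. The conditions had 1 library each, so they were compared without a test or p-value. A count of 0 was set to a floor of 3 counts for a fold. The ratio, its interval and the fold rule were tested on simulated Poisson counts for the T and dendritic gates. Those counts do not reproduce UMIs held by few cells, and the other steps were not tested this way.

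The members, lists and splits were chosen with earlier results of these data known. All members received a level. For each gate, the 3 largest and 3 smallest ratios and the 5 highest levels were named. For each list, the ends in T cells and the interferons with at least 10 UMIs were named. An end of a list is not reported here. Finer splits, and genes in the text beyond these, were chosen with their values in view. Alternatives changed the gates, cell filter, doublets, scaling, depth, minimum count and fold, and 4 were added after seeing the data.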

Additional observations from a re-analysis of the deposited data

Results flagged for a closer look

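Some genes of the list were higher under combo in the dendritic gate and lower in at least 1 other gate, with intervals on opposite sides of 1. Each is set here against the gate with its lowest ratio, and not every other gate was lower. Of 6 gates, the ratio was below 1 in 3 for Ifit1 and Oasl1. It was below 1 in 4 for Ifit2, Cmpk2 and Rtp4 and in 5 for Rsad2 and Ddx58. The difference between gates was not tested, since each gate had 1 library per condition. Rsad2 had a ratio of 6.83 in the dendritic gate and 0.313 in the NK gate. For Ifit1 the ratio was 5.15 against 0.298 in NK cells, for Oasl1 3.80 against 0.358 in NK cells, and for Cmpk2 1.68 against 0.260 in NK cells. Ddx58 had 2.02 against 0.542 in B cells, Rtp4 1.88 against 0.502 in NK cells, and Ifit2 1.52 against 0.344 in neutrophils. Without the 5 cells of each library with the most Rsad2 UMIs, the dendritic ratios were 2.31 for Rsad2, 2.46 for Ifit1, 1.64 for Oasl1, 1.16 for Cmpk2, 1.72 for Ddx58, 1.22 for Rtp4 and 1.65 for Ifit2.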

How the results depend on the processing

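With 1 library per condition, no paired analysis was possible because the groups compared share fewer than 2 replicate numbers, and no replicate could be left out. Summed ratios stayed below 1 in the T and NK gates under every alternative run. The values that left the counting interval of the reported ratio were as follows. Gates of at least 2 UMIs gave 0.471 in neutrophils and 0.782 in dendritic cells. Overlapping gates gave 0.681 in T, 0.650 in NK, 0.756 in B, 0.685 in neutrophil and 0.675 in dendritic cells. Neutrophils had 0.529 with no cell filter and 0.488 with a stricter one. A total without mitochondrial, ribosomal and hemoglobin genes gave 0.671 in T, 0.636 in NK, 0.487 in neutrophil and 0.764 in dendritic cells. A size factor from the median gene gave 0.706 in T, 0.669 in NK, 0.788 in monocyte/macrophage, 0.738 in neutrophil and 0.778 in dendritic cells, and reversed the B gate to 1.07. A total without genes at 5000 CPM or more gave 0.654 in T, 0.942 in B, 0.743 in monocyte/macrophage and 0.618 in neutrophil cells. Equal weight per cell gave 0.609, 0.602, 0.922 and 0.519 in T, NK, B and neutrophil cells. Thinning to 2000 UMIs gave 0.609 in T, 0.912 in B, 0.651 in monocyte/macrophage, 0.555 in neutrophil and 0.710 in dendritic cells. UMIs per cell gave 0.583 in T, 0.653 in NK and 0.916 in monocyte/macrophage cells, and 1.004 in B, 1.07 in neutrophil and 1.01 in dendritic cells, a reversal in these 3 gates. Without the most abundant member the ratios were 0.691 in T, 0.602 in NK, 0.815 in monocyte/macrophage, 0.548 in neutrophil and 0.693 in dendritic cells. Finer splits gave 0.697 (Cd8a) and 0.493 (Cd4) in T, 0.677 and 0.928 with and without Siglech, and 0.452 and 0.650 with and without Ptgs2. Without Jchain-rich cells the B ratio was 0.937, and without the 5 cells of each library with the most Rsad2 UMIs the dendritic ratio was 0.710. The total without abundant genes, UMIs per cell, the Jchain split and the 5 cells were chosen after seeing the data.

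The ratio of shares of cells was 0.739 in T and 0.678 in NK cells at 3 UMIs. At 10 UMIs it was 0.381, 0.235, 0.500 and 0.576 in T, NK, neutrophil and dendritic cells, and 1.29 in B cells. Thinned to 1000 UMIs it was 0.440 in T, 0.686 in dendritic and 1.42 in B cells. Without 4 members it was 0.918 in monocyte/macrophage, 0.619 in dendritic and 1.15 in B cells, so all 3 of these B values reversed. Of 211 pairs of gene and gate, 102 were lower and 11 higher. The share of all genes lower ran from 14.3% in the NK gate to 48.1% in the neutrophil gate. The share higher ran from 4.57% in the B gate to 9.04% in the monocyte/macrophage gate. The pooled count thus has no single background and is not a result for every gate. At 2-fold the lower and higher pairs were 40 and 4, with size factors 60 and 19, and with overlapping gates 65 and 8. Shares of all genes were not computed at these settings. The cause of these differences was not tested.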

Other observations

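Cells outside the gates also had lower levels of the 36 genes under combo. The 2535 lenvatinib and 1449 combo cells with no gate gene had 2743 and 1909 CPM, a ratio of 0.696 (95% counting interval 0.681 to 0.711). The 2327 and 2667 cells with UMIs of several gate genes had 2274 and 1872 CPM, a ratio of 0.823 (0.814 to 0.833). Over all kept cells the ratio was 0.760 (0.755 to 0.765).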
